A study of Mus musculus with 18 samples.

Results

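Genes of small nucleolar, Cajal body and spliceosomal RNAs were picked by name from the gene counts of mouse brain libraries. Of 23238 gene symbols, 124 began with Snora, Snord, Scarna or Rnu followed by a number, and 24 of these had at least 10 counts in 2 or more of the 18 libraries. The 24 are 13 C/D box RNAs of 75 so named, 6 H/ACA box RNAs of 36, 3 Cajal body RNAs of 9 and 2 spliceosomal RNAs of 3. The single U7 gene stayed under the limit. The limit used counts without regard to groups, but 13 of the 24 met it in the libraries of 3 days to 3 weeks alone, 1 met it in the other libraries alone and 10 met it in both.

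Male C57BL/6 mice, 7 weeks old at the start, received urban particulate matter (UPM, the reference dust SRM 1648a in PBS) into the nose. Short-term groups were dosed daily for 3, 5 or 7 days, and long-term groups 2 times per week for 3, 8, 12, 16 or 20 weeks. Control mice received the PBS vehicle, and the labels do not say for how long. Hippocampus and cortex were profiled from the same groups. RNA of all mice in a group was pooled, so each time and tissue is 1 library, there are no replicate animals, and p-values below measure the spread between libraries that differ in time. The count files of 3, 5 and 7 days and 3 weeks carry 1 style of column header (the early set, 8 libraries), and those of the control and of 8, 12, 16 and 20 weeks carry another (the control and late set, 10 libraries). The header style is all that defines these sets. Every control lies in the second set, so set and exposure cannot be told apart for the early times.

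C/D box RNAs guide the methylation of riboses in ribosomal RNA, and H/ACA box RNAs guide the conversion of uridine to pseudouridine. Most are cut out of introns of host genes, and they work in the nucleolus as particles with a fixed set of proteins. Cajal body RNAs do the same for the RNAs of the spliceosome. U11 and U12, made by Rnu11 and Rnu12 from their own promoters, recognise the rare introns of the minor spliceosome. Mature RNAs of these classes as a rule carry no long poly(A) tail, whereas the libraries were primed with oligo-dT at the 3′ end of RNA and read as single ends of 75 bases.

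The members on which the results turn are shown here, with the letters that mark their class in capitals. Snora81 and Snora30 are H/ACA box RNAs, whose class ends in ACA a few bases from the 3′ end. The letters ACA stood within the last 10 bases of 34 of the 36 H/ACA box sequences (94.4%) and of 8 of 74 C/D box sequences (10.8%); Snora81, which has no capitals, was 1 of the 2 exceptions. Sequences are those of GENCODE M21 transcripts on GRCm38, 5′ to 3′.
Snora81 (chr16:23110756-23110933, plus strand): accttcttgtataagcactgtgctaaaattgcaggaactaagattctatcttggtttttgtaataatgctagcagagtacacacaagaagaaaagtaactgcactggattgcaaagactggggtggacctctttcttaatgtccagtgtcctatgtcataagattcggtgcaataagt
Snora30 (chr7:127527874-127528003, plus strand): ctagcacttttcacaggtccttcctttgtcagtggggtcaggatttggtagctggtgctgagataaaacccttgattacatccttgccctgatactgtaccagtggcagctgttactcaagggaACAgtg

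For the C/D box RNAs, the capitals mark TGATGA, the usual C box, and CTGA, the usual D box. TGATGA lay within the first 20 bases of 47 of 74 C/D box sequences (63.5%) and of 0 of 36 H/ACA box sequences, and CTGA lay within the last 15 bases of 67 of the C/D box sequences (90.5%) and 2 of the H/ACA box ones. Both were searched on the given strand. Snord89 and Snord49b are shown as members whose ranges did not overlap between library sets, Snord104 is shown as a member that did not pass the test, and Snord118, the U8 RNA, as the one that differed the other way.
Snord89 (chr1:39548745-39548854, minus strand): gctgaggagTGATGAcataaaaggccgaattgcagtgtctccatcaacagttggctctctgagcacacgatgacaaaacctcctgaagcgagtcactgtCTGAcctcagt
Snord49b (chr11:62603079-62603150, plus strand): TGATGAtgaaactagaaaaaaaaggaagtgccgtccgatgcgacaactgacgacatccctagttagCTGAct
Snord104 (chr11:106500993-106501062, plus strand): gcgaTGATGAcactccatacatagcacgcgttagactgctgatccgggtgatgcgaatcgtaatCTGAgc
Snord118 (chr11:69073427-69073561, plus strand): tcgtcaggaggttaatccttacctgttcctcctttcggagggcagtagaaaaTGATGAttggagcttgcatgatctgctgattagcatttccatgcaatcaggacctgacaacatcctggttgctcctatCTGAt

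In Rnu11 and Rnu12 the capitals mark ATTTTT, the run that Sm proteins bind. The same letters occurred in 3 of 3 spliceosomal sequences, Rnu6 included, and in 6 of all 123 sequences (4.88%). The letters alone do not show that Sm proteins bind.
Rnu11 (chr4:132270080-132270213, minus strand): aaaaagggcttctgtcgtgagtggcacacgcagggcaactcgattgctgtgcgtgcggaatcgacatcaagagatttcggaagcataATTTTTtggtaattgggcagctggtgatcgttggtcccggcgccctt
Rnu12 (chr15:83149644-83149794, plus strand): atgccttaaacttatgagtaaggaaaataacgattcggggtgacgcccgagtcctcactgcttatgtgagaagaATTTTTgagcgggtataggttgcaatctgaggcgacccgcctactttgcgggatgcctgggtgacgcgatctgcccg

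The 24 members together took a mean of 0.0292% ± 0.00761 of all counts in early libraries (SD, n = 8), against 0.00289% ± 0.000584 in control and late libraries (SD, n = 10). The lowest early share was 0.0222% and the highest 0.0460%, while control and late shares stayed between 0.0019% and 0.00418%, so the ranges did not overlap. The ratio of the mean shares was 10.1, and 10.9 with Rn45s left out of the totals. Rn45s, which encodes pre-ribosomal RNA, also had a larger share in early libraries (14.8% to 18.6%, against 7.75% to 12.9% in the others), and its part in the members' difference was not tested. Libraries held 5434067 to 8967430 counts, and the least deep 2 were hippocampus at 3 and 5 days. In pooled bulk tissue, fewer cells of a type and less RNA per cell cannot be told apart. By class, H/ACA box members summed to 8639 counts in the early set against 167 in the control and late set, C/D box members to 8534 against 1916, Cajal body members to 279 against 135 and spliceosomal members to 351 against 30. Snora81 and Snord89 alone made up 63.7% to 79.8% of member counts in early libraries, against 45.7% to 73.9% in control and late ones. The other 22 members still summed to 78.8 ± 12.9 counts per 1000000 counts of the library (CPM) in the early set and 11.8 ± 2.38 CPM in the control and late set (SD, n = 8 and 10).

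**Figure D1:**
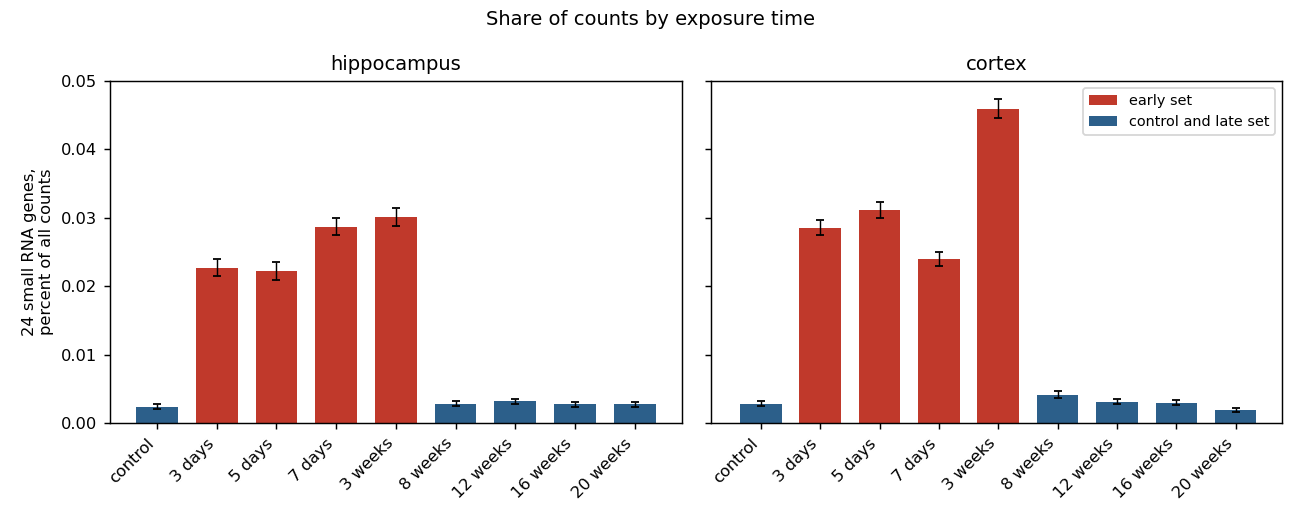
Share of all counts (percent, vertical axis) taken by the 24 genes in each library, by exposure time with the control first, for hippocampus and cortex; bars are single libraries and error bars are 95% Wilson intervals, which cover counting error only. The 8 early libraries stand between 0.0222% and 0.0460%, and the 10 control and late libraries between 0.0019% and 0.00418%.

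Between library sets, edgeR's quasi-likelihood test with tissue as a covariate called 11 of the 15 members that passed its filter on low counts higher in the early set and 0 lower, at an adjusted p (Benjamini-Hochberg) under 0.05. Over all 14249 genes tested, 38.8% were called, 19.9% higher and 18.9% lower. The log2 fold change was above 0 in all 15 and had a median of 3.23, against -0.003 over all genes tested. Members that passed the filter through the early set alone had to differ, so these counts stand as descriptions. When the filter was run by tissue on the control and late set alone, Snord104 and Snord89 were the only members to pass. Fold changes and p-values of the other tested members, Snora81 and Snord49b among them, are therefore descriptions too. The 13 members that met the 10-count limit in the early set alone were Snora7a, Snora21, Snora35, Snora64, Snord15a, Snord16a, Snord22, Snord45c, Snord55, Snord83b, Scarna2, Rnu11 and Rnu12, and their ranges, fold changes and p-values below are likewise descriptions. Without the filter all 24 were tested: 17 were higher, 1 was lower and 6 did not pass, where 13.6% of 19759 genes were higher and 15.4% lower. Of the 11 members that met the 10-count limit within the control and late set itself, 6 were higher, 1 was lower and 4 did not pass. The lower member, Snord118, met the limit in that set alone, so its range, fold change and p-value below are descriptions too. Scaling by total counts moved the median of all genes to -0.19 and the share of called genes that were higher to 22.7%, against 51.3% under the main scaling. The members' directions did not flip under total counts or DESeq2's size factors, and Scarna13 no longer passed under total counts (edgeR adjusted p = 0.0593).

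**Figure D2:**
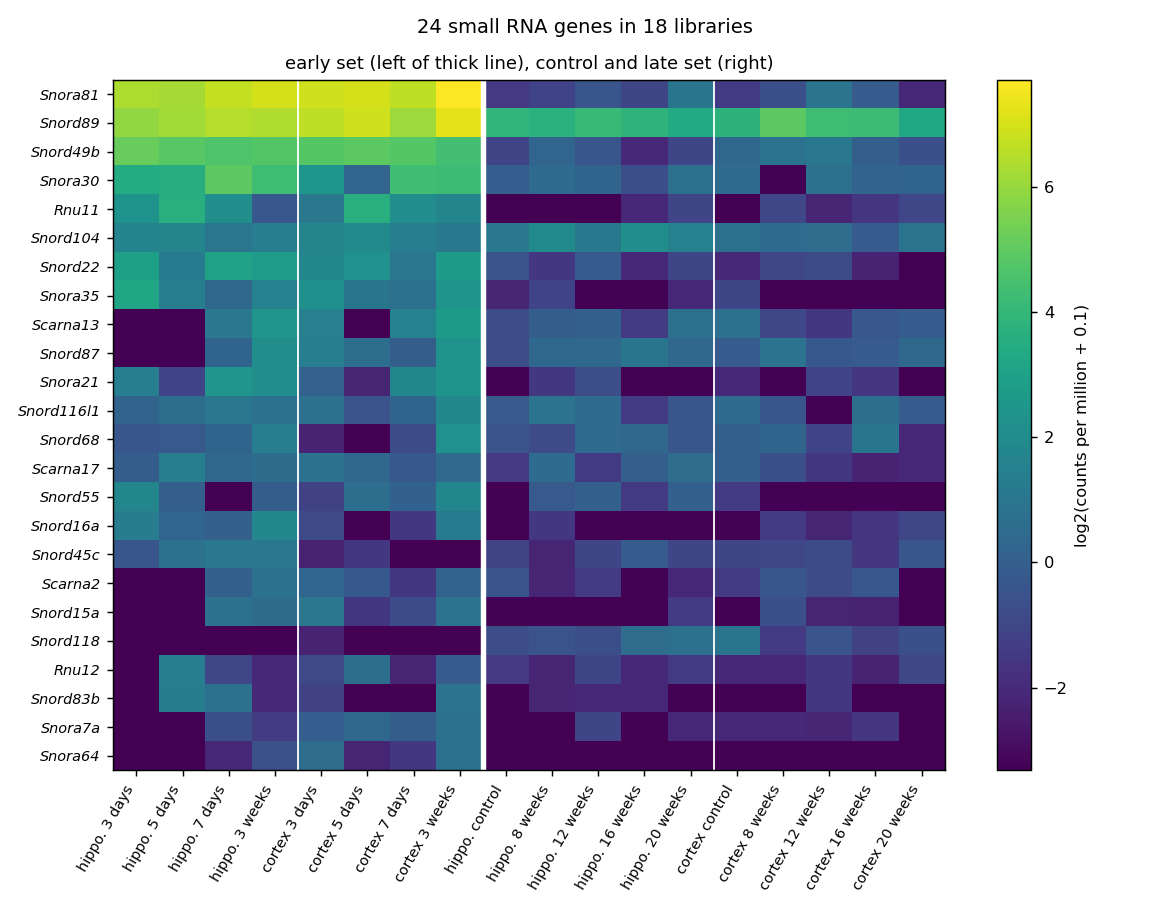
Log2(CPM + 0.1) of the 24 genes (rows, ordered by summed CPM) in the 18 libraries (columns), with the early set left of the thick line and the control and late set right of it. Snora81 and Snord49b change most visibly at the thick line, Snord104 stays at a like level across it, and Snord118 is at 0 in 7 of the 8 early libraries.

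Snora81 lies in a retained-intron exon of Eif4a2, a translation initiation helicase gene. Counts below run 3, 5 and 7 days and 3 weeks for the early set, and control, 8, 12, 16 and 20 weeks for the control and late set. Snora81 had 486, 405, 763 and 913 counts in hippocampus and 1077, 1037, 823 and 1806 in cortex of the early set, against 2, 3, 5, 3 and 14 in hippocampus and 2, 4, 15, 7 and 1 in cortex of the control and late set. Every early library was above every control and late library, the lowest early value being 74.5 CPM and the highest control or late value 1.86 CPM. Snora81 averaged 118 ± 42.0 CPM in the early set and 0.711 ± 0.624 CPM in the control and late set (SD, n = 8 and 10). The log2 fold change was 7.52 ± 0.26 (SE), with an edgeR adjusted p of 5.58e-16, and the pooled counts gave a ratio of 170 with an exact 95% interval of 131 to 225 for counting error alone.

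The other H/ACA box members also stood higher in the early set, with fewer counts. Snora30, in an intron of the chromatin remodeler gene Srcap, had 65, 64, 226 and 136 counts in hippocampus and 49, 9, 166 and 160 in cortex of the early set, against 7, 11, 8, 4 and 12 in hippocampus and 10, 0, 13, 9 and 8 in cortex of the control and late set. Its ranges overlapped through cortex at 5 days alone, with 9 counts or 1.10 CPM, while every other early library was above every control and late library. The log2 fold change was 3.97 ± 0.44 (SE, edgeR adjusted p = 1.76e-07). Snora35, a brain RNA within an intron of the serotonin receptor gene Htr2c, had 53, 14, 9 and 20 counts in hippocampus and 41, 15, 13 and 44 in cortex of the early set, against 1, 3, 0, 0 and 1 in hippocampus and 3, 0, 0, 0 and 0 in cortex of the control and late set. Its ranges did not overlap, and its log2 fold change was 5.12 ± 0.61 (SE, edgeR adjusted p = 5.56e-07). Snora21, in an intron of Rpl23, had 15, 2, 39 and 30 counts in hippocampus and 9, 1, 27 and 44 in cortex of the early set, against 0, 2, 4, 0 and 0 in hippocampus and 1, 0, 3, 2 and 0 in cortex of the control and late set. Both tissues were low at 5 days, where its counts fell within the range of the control and late set. Its log2 fold change was 4.22 ± 0.69 (SE, edgeR adjusted p = 3.65e-05).

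Snora7a and Snora64 were tested without the filter alone. Snora7a, in Rpl32, summed to 44 counts in the early set and 9 in the control and late set. Of the 44, 38 were in cortex and 6 in hippocampus, where the control and late set had 4. Snora64, in Rps2, summed to 34 counts in the early set, 29 of them in cortex, and 0 in the control and late set. The early set was 14.8-fold higher when 3 counts over the control and late set stand for its 0. The exact 95% interval of the ratio, for counting error alone, starts at 11.4. Both were higher without the filter (edgeR adjusted p = 0.0267 for Snora7a and 0.00117 for Snora64), and both met the 10-count limit in the early set alone.

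Among C/D box members, Snord89 is the one with 72 or more counts in every library. It had 358, 399, 670 and 593 counts in hippocampus and 915, 1000, 562 and 1312 in cortex of the early set, against 123, 107, 133, 109 and 81 in hippocampus and 106, 223, 163, 161 and 72 in cortex of the control and late set. The ranges did not overlap, with at least 61.3 CPM in the early set and at most 30.4 CPM in the control and late set. Its log2 fold change was 2.70 ± 0.18 (SE, edgeR adjusted p = 7.60e-11). It lies in an intron of the non-coding gene Gm15832, which the files do not list, and 2442 bases past the end of Rnf149 on the same strand, whose own log2 fold change was 0.46 ± 0.08 (SE, edgeR adjusted p = 0.000112).

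Snord49b, in an intron of the non-coding gene 2410006H16Rik, had 206, 156, 185 and 189 counts in hippocampus and 249, 251, 232 and 183 in cortex of the early set. In the control and late set it had 3, 9, 5, 1 and 3 counts in hippocampus and 9, 13, 17, 8 and 4 in cortex. The early libraries were close to each other, at 27.96 ± 4.05 CPM, and lay above all others, which averaged 0.918 ± 0.624 CPM (SD, n = 8 and 10). The log2 fold change was 5.10 ± 0.24 (SE, edgeR adjusted p = 1.87e-13). Snord49b also holds the longest run of A among the 24 sequences, 8 bases.

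Snord22, the U22 RNA needed to process small-subunit ribosomal RNA in frog oocytes, lies in an exon of Snhg1 in this annotation. It had 44, 12, 59 and 47 counts in hippocampus and 30, 39, 16 and 55 in cortex of the early set, against 5, 2, 6, 1 and 3 in hippocampus and 1, 3, 4, 1 and 0 in cortex of the control and late set. The ranges did not overlap, and the log2 fold change was 4.09 ± 0.42 (SE, edgeR adjusted p = 6.15e-08). Snord15a, in an intron of Rps3, summed to 61 counts in the early set and 8 in the control and late set, with a log2 fold change of 3.23 ± 0.79 (SE, edgeR adjusted p = 0.00223). Snord16a, Snord55 and Snord83b were higher without the filter, with summed counts of 76, 81 and 44 in the early set against 10, 24 and 5 in the control and late set, and each met the 10-count limit in the early set alone.

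A group of C/D box members did not pass the test. Snord104 had 18, 17, 14 and 18 counts in hippocampus and 28, 31, 21 and 18 in cortex of the early set, against 16, 30, 16, 33 and 21 in hippocampus and 12, 10, 12, 7 and 13 in cortex of the control and late set. The ranges overlapped in hippocampus and not in cortex, where every early library was higher. Its log2 fold change over both tissues was 0.62 ± 0.28 (SE, edgeR adjusted p = 0.0884). Within cortex alone it was 1.20 (edgeR adjusted p = 0.0209) and within hippocampus alone 0.03 (edgeR adjusted p = 0.965), but the difference between tissues did not pass its own test (log2 difference -1.16, edgeR adjusted p = 0.43).

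Snord87, in an intron of Snhg6, had 0, 0, 8 and 30 counts in hippocampus and 23, 12, 7 and 43 in cortex of the early set, against 4, 10, 9, 14 and 9 in hippocampus and 6, 13, 6, 7 and 9 in cortex of the control and late set. Snord116l1, of the cluster of C/D box RNAs whose human counterpart is lost in Prader-Willi syndrome, had 6, 8, 14 and 11 counts in hippocampus and 15, 5, 9 and 29 in cortex of the early set. In the control and late set it had 6, 14, 10, 2 and 5 counts in hippocampus and 10, 5, 0, 13 and 6 in cortex. Both members overlapped between sets, with log2 fold changes of 0.92 for Snord87 and 1.003 for Snord116l1 (edgeR adjusted p = 0.192 and 0.0905). Snord68, in a retained-intron exon of Rpl13, summed to 79 counts in the early set, 40 of them from cortex at 3 weeks, with 68 in control and late libraries. Snord45c, in Rabggtb, summed to 45 counts in the early set and 33 in the control and late set. In hippocampus these were 42 early counts against 16, and in cortex 3 against 17, and this split by tissue was not tested. The log2 fold changes of Snord68 and Snord45c did not pass (0.77 for Snord68, edgeR adjusted p = 0.34, and 0.53 without the filter for Snord45c, adjusted p = 0.614).

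Snord118 went the other way, and it met the 10-count limit in the control and late set alone. This gene makes the U8 RNA, needed to process large-subunit ribosomal RNA, and lies 134 bases past the end of Tmem107 rather than in an intron. It had 0 counts in all 4 early hippocampus libraries and 1, 0, 0 and 0 in early cortex, against 4, 5, 4, 11 and 12 in hippocampus and 14, 2, 5, 3 and 4 in cortex of the control and late set. No early library reached the level of any control or late library, although a count of 0 still allows up to 0.407 to 0.552 CPM in a single early hippocampus library. Without the filter the log2 fold change was -4.55 ± 0.83 (SE, edgeR adjusted p = 9.06e-05), and the pooled counts gave a ratio of 0.0204 with an exact 95% interval of 0.000507 to 0.118. Tmem107 itself had a log2 fold change of 0.18 ± 0.19 (SE) and did not pass.

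The spliceosomal members, which have no host gene, both met the 10-count limit in the early set alone, Rnu12 through its 2 libraries at 5 days. Rnu11 had 28, 65, 33 and 5 counts in hippocampus and 18, 99, 34 and 27 in cortex of the early set, against 0, 0, 0, 1 and 3 in hippocampus and 0, 3, 1, 2 and 3 in cortex of the control and late set. Counts were highest at 5 days in both tissues, and the ranges of the sets did not overlap. Its log2 fold change was 5.06 ± 0.59 (SE, edgeR adjusted p = 4.59e-07); its span overlaps an exon of Gm28872 on the other strand, and the strand setting of the counting is not given in the sources used here. Rnu12 summed to 42 counts in the early set and 17 in the control and late set, with 14 and 12 of the 42 at 5 days in hippocampus and cortex. The ranges of Rnu12 overlapped between sets. It was tested without the filter alone, with a difference of 1.84 ± 0.68 on the log2 scale (SE, edgeR adjusted p = 0.042).

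The Cajal body members had log2 fold changes under 2. Scarna13, in an intron of Snhg10, had 0, 0, 15 and 37 counts in hippocampus and 24, 0, 23 and 54 in cortex of the early set, against 4, 7, 7, 2 and 12 in hippocampus and 12, 3, 2, 6 and 6 in cortex of the control and late set. Its early libraries spread from 0 to above all others, and its log2 fold change of 1.76 ± 0.66 (SE, edgeR adjusted p = 0.0374) dropped to 0.81 (adjusted p = 0.398) without both 3-week libraries, a fit added after seeing the data. Leaving out 1 library raised its adjusted p to as much as 0.152, without hippocampus at 3 weeks. The call was also lost without hippocampus of the control or of 16 weeks, or without cortex at 7 days. The same held without cortex at 3, 8, 12, 16 or 20 weeks. In these fits its edgeR adjusted p ran from 0.05003 to 0.1185. Scarna13 was at 0.65 and did not pass by limma-voom (adjusted p = 0.574), nor by limma-voom with exposure time as a replicate block (adjusted p = 0.576). Scarna17 summed to 80 counts in the early set and 48 in the control and late set, and its log2 fold change was 1.37 ± 0.45 (SE, edgeR adjusted p = 0.0176). Within hippocampus it was 1.01 and did not pass (edgeR adjusted p = 0.293), and Scarna17 did not meet the filter within cortex. Scarna2 summed to 46 counts in early libraries, against 26 in the others, and did not pass without the filter (edgeR adjusted p = 0.165).

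**Figure D3:**
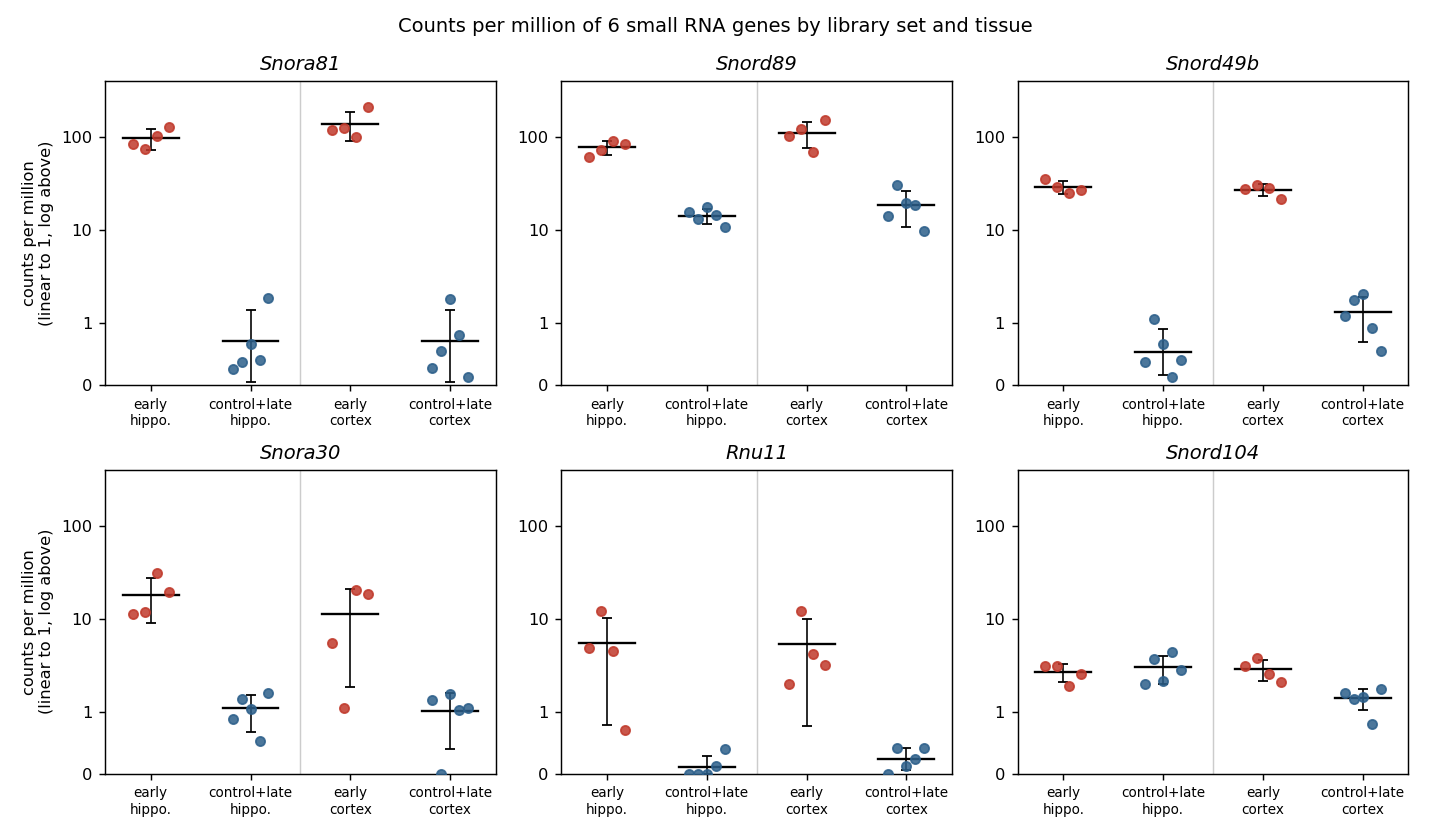
CPM of 6 genes in each library (vertical axis linear to 1 and logarithmic above), with the early set left of the control and late set in hippocampus and then in cortex; points are libraries, horizontal lines are means and error bars are SD with lower ends kept at 0 or above. Snora81, Snord89, Snord49b and Rnu11 show no overlap between sets, Snora30 overlaps through 1 early cortex library, and Snord104 overlaps in hippocampus.

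By range alone, 6 of the 24 members lay above in every early library (Snora81, Snord89, Snord49b, Snord22, Snora35 and Rnu11), where 1.52% of the 14953 genes with 10 counts in 2 libraries did so. Snord22, Snora35 and Rnu11 met the 10-count limit in the early set alone, so their part in this count followed from how members were kept. Snord118 alone lay below in every early library, as did 6.91% of those genes. It met the 10-count limit in the control and late set alone, so this too followed from how members were kept. Within hippocampus 5 of 8 members tested were called, where 21.7% of genes were, and within cortex 9 of 11, where 30.5% were. These counts are descriptions too, since some members had 10 counts in early libraries alone. They were Snord22 in both tissues, Snord49b in hippocampus, and Rnu11 and Snora35 in cortex. An interaction test, added after seeing the data, called a set difference that differed between tissues in 0 of 15 members and 0 of 14249 genes by edgeR. The smallest adjusted p among these members was 0.268, for Snord49b. Members that did not pass the filter, Snord45c among them, were not in this test.

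The values just at the limit show how it fell. Just inside it were Scarna2, Snora64, Snora7a, Rnu12 and Snord45c, with highest counts of 12 to 15. Just outside, with 10 or more counts in 1 library, were 13 symbols. Snora75 had 45 counts in early libraries and 0 in control and late ones, Snora47 had 40 in early libraries and 3 in control and late ones, and Snora33 had 1 in early libraries and 40 in control and late ones. All 100 symbols under the limit together had 804 counts in early libraries (13.5 CPM), against 621 in control and late libraries (7.99 CPM). Relative to library totals, 56 of them had more counts in early libraries, 30 had fewer and 14 were at 0 in every library.

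Host genes were set beside the members they hold. Of the 24 members, 18 lie inside a gene on their strand, 11 in introns, 4 in exons of retained-intron transcripts and 3 in other exons. For 11 members both the member and its host were tested between sets, and in all 11 the member's log2 fold change was above the host's. Among these, Snora21, Snora35, Snord15a and Snord22 met the 10-count limit in the early set alone, so this count is a description. The hosts' log2 fold changes ran from -0.67 (Snhg10) to 1.12 (2410006H16Rik) with a median of 0.23; 5 hosts were higher in the early set (Eif4a2, Rpl23, Rps3, Rpl13 and 2410006H16Rik), 1 was lower (Srcap) and 5 did not pass. Over all genes tested 19.9% were higher and 18.9% lower. Under total-count scaling Rpl13 did not pass (edgeR adjusted p = 0.243), Htr2c and Snhg1 turned to -0.01 and -0.08, and Snhg10 and Snhg14 were lower (adjusted p = 0.0185 and 0.00677).

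As ratios of counts, not scaled by length, members were set against their hosts. Per 1000 counts of Eif4a2, Snora81 had 394 ± 148 counts in the early set and 3.45 ± 3.04 in the control and late set (SD, n = 8 and 10). Per 1000 counts of 2410006H16Rik, Snord49b had 506 ± 109 in the early set and 32.0 ± 23.3 in the control and late set (SD, n = 8 and 10). Snora30 exceeded its host in the early set on average, with 1255 ± 876 counts per 1000 of Srcap, against 55.04 ± 30.1 in the control and late set (SD, n = 8 and 10). Other small RNAs of the same hosts had few counts: Snord2, in Eif4a2, had 26 counts in all 18 libraries, and Snord49a and Snord65, in 2410006H16Rik, had 8 and 39.

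**Figure D4:**
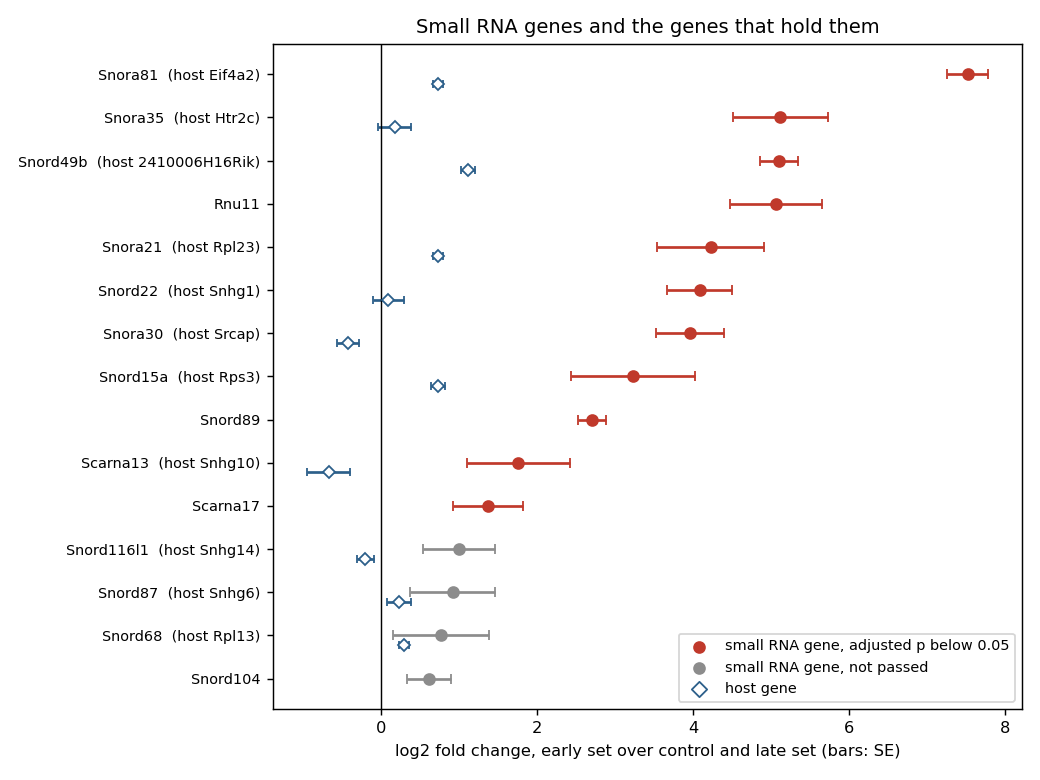
Log2 fold change of the early set over the control and late set for the 15 tested small RNA genes (filled circles, red where adjusted p is below 0.05) and for the host genes of 11 of them (open diamonds); bars are SE. Each small RNA gene lies to the right of its host, and hosts lie between -0.67 and 1.12. Snora21, Snora35, Snord15a and Snord22 met the 10-count limit in the early set alone.

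Protein genes of the machinery around these RNAs were described by list, as log2 fold changes between sets. Over all 14249 genes tested, 19.9% were higher and 18.9% lower under the main scaling. Under total-count scaling 1356 of these genes were higher and 4612 lower. Of 9 tested protein genes of the small nucleolar particles, 5 were higher in the early set (among them Nop10 by 0.62, Nhp2 by 0.68, Nhp2l1 by 0.52 and Gar1 by 0.41 on the log2 scale), Nop56, a core C/D box protein, was lower at -0.40, and 3 did not pass, with 3 higher and 2 lower under total-count scaling. Of 17 Sm and LSm genes, whose proteins ring the spliceosomal RNAs, 15 were higher and 0 lower, with Lsm3 at 1.04, Snrpd3 at 0.95, Snrpg at 0.78 and Snrpd2 at 0.64. Their median was 0.64, against -0.003 over all genes tested, and under total-count scaling 11 were higher and 1 lower. Of 8 minor spliceosome protein genes 5 were higher (Snrnp25 at 0.73, Zmat5 at 0.66, Zrsr2 at 0.32 and Pdcd7 at 0.27) and 2 lower (Rnpc3 at -0.94 and Snrnp48 at -0.58), and under total-count scaling 2 and 2.

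Of 21 protein genes of the major spliceosomal particles, 4 were higher (Snrpb2 at 0.61, Prpf31 at 0.62) and 8 lower (Snrnp70 at -0.84, Sart3 at -0.43), and under total-count scaling 2 and 11. Of 19 assembly and Cajal body factors 3 were higher (Ruvbl1 at 0.38) and 3 lower (Ruvbl2 at -0.87, Gemin4 at -0.92); under total-count scaling 0 were higher and 6 lower. Over all genes tested 19.9% were higher and 18.9% lower under the main scaling, near the shares of this list and of those that follow in this paragraph. Under total-count scaling 4612 of 14249 genes were lower, also near the share of lower genes in this list. Of 16 genes of small RNA 3′ end formation and decay, 4 were higher (Skiv2l2, a helicase of the nuclear exosome, at 0.79) and 4 lower (Pabpn1, the nuclear poly(A)-binding protein, at -1.21, and the exosome nuclease gene Dis3 at -0.90), and under total-count scaling 2 and 8. Of 17 listed host transcripts of small nucleolar RNAs 4 were higher (Snhg8 at 0.77, Gas5 at 0.49, Snhg9 at 0.89) and 3 lower (Snhg11 at -2.48, Snhg20 at -0.81, Dancr at -0.61), with a median of 0.10 that turned to -0.08 under total-count scaling.

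Of 11 other listed RNAs without a long tail, 3 passed the filter, and these were also higher in the early set. Within the control and late set alone, 1 of the list passed the filter, so the count below is a description. Over all genes tested 19.9% were higher and 18.9% lower. All 3 tested were called: Rpph1, the RNA of ribonuclease P, by 3.11 ± 0.48 on the log2 scale, the vault RNA gene Vaultrc5 by 2.20 ± 0.57 and Rn45s by 0.90 ± 0.10 (SE, edgeR adjusted p = 1.98e-05, 0.00372 and 2.08e-07). Nuclear long non-coding RNAs went the other way, with 7 of 8 lower and 0 higher, a median of -2.45, and Miat at -2.70, Meg3 at -2.62, Snhg11, which stands in the host list too, at -2.48 and Kcnq1ot1 at -2.42. The part of the larger Rn45s share of the early libraries in these shifts was not tested.

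In the comparison of hippocampus with cortex, fitted with a term for each exposure time, 0 of the 6 members tested passed by edgeR, where 18.2% of 13362 genes were called. At an unadjusted p under 0.05 there were 2, with log2 fold changes of hippocampus over cortex of -0.45 ± 0.16 for Snord89 and -0.47 ± 0.19 for Snora81 (SE, edgeR adjusted p = 0.0548 and 0.112). Snora30 had 0.68 ± 0.38 (SE, adjusted p = 0.249). Without the filter Snord89 and Snora81 passed (edgeR adjusted p = 0.0123 and 0.0472; 12.8% of 19759 genes were called), and limma-voom called both and DESeq2 called Snord89, so the call rests on the setting. Snora81 averaged 97.6 ± 24.3 CPM in early hippocampus and 139 ± 48.7 CPM in early cortex (SD, n = 4 each), and Snord89 averaged 77.4 ± 12.9 CPM in early hippocampus and 111 ± 35.5 CPM in early cortex (SD, n = 4 each). Both tissues overlapped in each gene. Listed markers followed the labels, with 7 of 7 tested hippocampal markers higher and 8 of 8 cortical markers lower in hippocampus. Of the lists above, between 0 and 3 genes each were called between tissues, such as Lsm8 at 0.47, Snrnp70 at 0.41, Dkc1, the pseudouridine synthase of H/ACA particles, at -0.28, and Coil, the Cajal body protein, at -0.36.

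Between long-term and short-term exposure, 2 of 19 members tested were lower in long-term libraries and 0 higher, where 14.9% of 14427 genes were called, 6.81% lower. The log2 fold change was -3.74 ± 0.67 for Rnu11 and -2.44 ± 0.73 for Snord49b (SE, edgeR adjusted p = 0.00487 and 0.0313). Long-term exposure spans both library sets, since 3 weeks lies in the early set. Without both 3-week libraries, long-term exposure lies wholly in the control and late set and short-term exposure wholly in the early set. Set and exposure then cannot be told apart. In that fit 9 of 13 members tested were lower and 0 higher, where 31.8% of genes were called in either direction. Members that passed its filter through the short-term libraries alone had to be lower, so this count is a description. Snord89, at -1.31 (edgeR adjusted p = 0.0871), then stood at -2.55 (adjusted p = 5.63e-08). The call for Snord49b was lost when any 1 of 9 libraries was left out, with edgeR adjusted p of 0.0503 to 0.0625, and its direction did not change.

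Against control, 0 of 22 members and 0 of 14865 genes were called by edgeR in all UPM libraries together (0% in all). At an unadjusted p under 0.05 there were 3 members and 272 genes: Snora81 (log2 fold change 7.94 ± 3.51, SE), Rnu11 and Snord16a, each with an adjusted p of 0.98. Rnu11 had 322 counts in UPM libraries and 0 in both controls, which is 13.6-fold higher when 3 counts over both controls stand for 0. Snord16a was 3.63-fold higher by the same reckoning, which leaves out counting error in the UPM libraries. These members were low in the 8- to 20-week libraries as well, as the counts above show. Within the control and late set, 0 of 11 members and 0 of 14465 genes were called between 8 to 20 weeks of UPM and control, with 0 members and 676 genes at an unadjusted p under 0.05. The 3 members with the smallest p were Snord87 (0.93 ± 0.55), Snora81 (1.64 ± 0.99) and Snord118 (-0.77 ± 0.68), on the log2 scale with SE and edgeR adjusted p of 0.994 to 0.995.

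Within the early set, 3 weeks was set against 3 to 7 days. By edgeR 0 of 21 members and 0 of 14036 genes were called, with 6 members and 606 genes at an unadjusted p under 0.05. Snora81 was highest at 3 weeks in both tissues, at 129 CPM in hippocampus against 83.2, 74.5 and 104 CPM at 3, 5 and 7 days, and at 210 CPM in cortex against 120, 127 and 100 CPM. Its log2 fold change was 0.73 ± 0.17 (SE, edgeR adjusted p = 0.72). Snord68 had 3.23 ± 1.04 and Snord87 2.51 ± 0.95 (SE, both with an adjusted p of 0.999), and with 1 library left out they ran between 1.52 and 4.53 for Snord68 and between 1.68 and 3.41 for Snord87. Rnu11 had -1.76 ± 0.76 (SE, adjusted p = 0.999). Over 8 to 20 weeks, 0 of 2 members tested had a slope by edgeR, where 0.264% of 13662 genes did. Snord89 had -0.81 ± 0.23 per 10 weeks on the log2 scale (SE, unadjusted p = 0.00443, adjusted p = 0.247), with 13.2, 17.7, 14.4 and 10.8 CPM in hippocampus at 8, 12, 16 and 20 weeks and 30.4, 19.6, 18.6 and 9.84 CPM in cortex. Its lowest value was at 20 weeks in both tissues. Snord104 had a slope of 0.01 per 10 weeks (adjusted p = 0.995).

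Some features are shared by members that the name and count rule did not use. The 24 annotated lengths run from 70 to 414 bases with a median of 127, against 62 to 325 bases with a median of 90 for symbols under the limit. Of the 24, 6 lie outside any gene on their strand, against 3 of the 99 placed symbols under the limit. A run of 5 or more A was present in 3 of 24 members and in 7 of 99 under the limit. These are descriptions, and bases beyond the annotated ends were not examined.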

How the data were processed

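Per the labels' protocols, total RNA was pooled by group and QuantSeq 3′ libraries were made with oligo-dT priming. The authors deposited gene counts (whole numbers, not normalized), 1 file per library. The submitters' processing notes name Bowtie2, bedtools, edgeR and mm10 without versions; strand and multi-mapping settings are not given in the sources used here. Files hold 23282 lines, and 27 symbols turned into dates in 2 files were restored. Members were named by the rule above. The members, lists and tests were chosen with earlier results of these data known.

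Counts were fitted over all genes with edgeR 4.0.16 (R 4.3.3; TMM, filterByExpr, quasi-likelihood test, Benjamini-Hochberg adjustment, threshold 0.05), SE being the log2 fold change over the root of F. Alternatives used limma 3.58.1 (voom), DESeq2 1.42.0, other scalings, no filter, within-tissue and within-set fits, and each library left out. Fits were tested on simulated data. Intervals came from SciPy 1.17.1 and cover counting error only. Genes named are the 12 members of highest mean CPM, up to 8 called members per direction (otherwise the 3 of smallest p), all Rnu and Scarna members, those at the limit, hosts, and up to 4 called genes per list and direction. Places come from GENCODE M21 and RefSeq tables of GRCm38. No libraries were copies: for any pair, chi-squared over its degrees of freedom was at least 4.67. Same-time tissues did not deviate together (r of -0.15 to 0.17 over 9 pairs), which gives no sign that equal times pair the libraries; the tissue fit carries exposure time as a term, which also takes out the library set.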

Additional observations from a re-analysis of the deposited data

Results flagged for a closer look

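Within each set and tissue (4 or 5 libraries), 97 groups of member values were looked at, of which chance alone would set about 4.85 apart at 1 in 20; in 11 the highest library stood far from the others. Those with 10 or more counts were Snord68 in early cortex at 3 weeks (4.66 CPM from 40 counts, others 0 to 0.486), Rnu12 in early hippocampus at 5 days (2.58 CPM from 14 counts, others 0 to 0.407), Snora81 in hippocampus at 20 weeks (1.86 CPM from 14 counts, others 0.251 to 0.666) and Snord118 in control cortex (1.87 CPM from 14 counts, others 0.272 to 0.602). The other 7 rest on 1 to 4 counts. They are Snord118 in early cortex at 3 days (0.112 CPM), Snora35 in control cortex (0.401 CPM), Snord55 in control cortex (0.267 CPM), Snord15a in hippocampus at 20 weeks (0.266 CPM), Snord15a in cortex at 8 weeks (0.545 CPM), Snord16a in hippocampus at 8 weeks (0.248 CPM) and Snord83b in cortex at 12 weeks (0.241 CPM).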

How the results depend on the processing

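Of 154 alternative values of the counts of called members, 130 kept their side, 12 were weaker and 12 stronger. For library set (11 of 15 called), there were 18 of 24 without the filter, 5 of 8 within hippocampus, 6 of 6 among members with 50 counts and 10 to 15 with 1 library left out. Of all genes, 38.8% were called in the main fit, 29% without the filter and 21.7% within hippocampus. The members with 50 counts, apart from Snord89, reached them in early libraries alone, so 6 of 6 is a description. For tissue (0 called), there were 2 without the filter, 1 by DESeq2 and 2 by limma-voom, and 0 to 2 with 1 exposure time left out (1 without control, 2 without 7 days, 2 without 20 weeks). Of all genes, 18.2% were called in the main tissue fit, 12.8% without the filter, 20.2% by DESeq2 and 19.8% by limma-voom. The share was 15.7% without control, 17.9% without 7 days and 16% without 20 weeks. For long-term against short-term exposure (2 called), there were 1 by DESeq2, 7 by limma-voom, 7 with exposure time as a replicate block, 9 without both 3-week libraries, 1 among members clear of other exons and 1 to 7 with 1 library left out: 6 without hippocampus at 3 weeks, 7 without cortex at 3 weeks, and 1 without any of hippocampus at 5 days, 8 or 12 weeks or cortex at 5 days or 8, 12, 16 or 20 weeks. Of all genes, 14.9% were called in this main fit, 20.2% by DESeq2, 15.3% by limma-voom and 9.79% with the replicate block. The share was 31.8% without both 3-week libraries, 22.4% without hippocampus at 3 weeks and 24.7% without cortex at 3 weeks. In the fits with 1 library left out and 1 member called it was 8.68% to 11.4%. Without both 3-week libraries, exposure class and library set cannot be told apart, and the count of 9 is a description. The other comparisons stayed at 0 throughout. The cause of these differences was not tested.

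Pairing tissues by time changed the tissue count by nothing: it was 0 with time as a factor and 0 with no replicate block. Of 872 other values, 7 changed sign, none of them called. With 1 library left out, Snord68 between sets ran from -0.19 (without cortex at 3 weeks) to 0.97, Snord118 at 8 to 20 weeks against control from -2.003 to 1.003 (without control cortex), and the slope of Snord104 from -0.21 (without cortex at 20 weeks) to 0.18, being below 0 without hippocampus at 12 or 16 weeks too. Snord87 between sets was at -0.069 without both 3-week libraries, and the slope of Snord104 was -0.021 by limma-voom. Depth limits members with few counts: 1 count was worth 0.112 to 0.184 CPM. With RNA pooled, animal-to-animal spread is not measured.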

Other observations

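Members were not detected evenly within the early set. Of the 24, 15 and 17 had a count in hippocampus at 3 and 5 days, the least deep libraries, while 19 to 24 had one in the other 6 early libraries and 15 to 20 in the control and late libraries. Scarna13, Snord87, Scarna2, Snord15a, Snord118, Snora7a and Snora64 were at 0 in hippocampus at both 3 and 5 days. Of the 100 symbols under the limit, 15 had a count in each of these 2 libraries and 20 to 38 in the others. The highest number of members with 10 or more counts was 20, in cortex at 3 weeks.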
